A study of Mus musculus with 2 samples.

Results

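Secretory cells with goblet genes, and in part with alpha-defensin genes, were described within the epithelium of colitis-associated colon tumors (CACs). They were chosen by a score, the summed UMIs of *Muc2*, *Tff3*, *Spdef*, *Fcgbp*, *Zg16* and *Clca1* per 10000 UMIs of a cell, where a UMI marks 1 captured mRNA molecule. Cells were eligible when annotated as epithelial by the study, with at least 1000 UMIs and under 2500 mitochondrial UMIs per 10000, and the 5% with the highest score in each library were the members. This gave 433 of 8659 eligible cells in the library labelled Mir34a_F/F and 294 of 5884 in the library labelled Mir34a_Mye_KO, together 727 of the 38883 cells of the series. They were compared with the other 8226 and 5590 eligible epithelial cells of the same library.

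CACs were induced in mice of 6 to 10 weeks with 10 mg/kg azoxymethane and 3 cycles of dextran sodium sulfate in the drinking water, at 2.5% in cycles 1 and 2 and 2% in cycle 3, and were collected on day 110. Each genotype gave 1 library from 6 to 8 tumors of 3 pooled female mice, for which 30000 cells were loaded. Both groups carried floxed *Mir34a* alleles on a C57Bl/6 background. Mir34a_F/F mice had no Cre, and Mir34a_Mye_KO mice carried *LysM-Cre*, a driver of recombination in myeloid cells, so that the epithelial cells described here were not the intended site of deletion. With 1 library per genotype there was no replicate, no test between genotypes was possible, and mouse, library and genotype cannot be told apart. All intervals are exact 95% intervals and cover counting error alone.

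Goblet cells make the mucus of the colon. They store the gel-forming mucin Muc2 in granules, together with trefoil peptides and mucus-associated proteins, and their fate depends on the transcription factors Atoh1 and Spdef. Paneth cells are a related secretory lineage that releases alpha-defensins and lysozyme. They reside in the crypts of the small intestine and are rare in the healthy colon.

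The 2 libraries held 147109016 and 193133086 UMIs in 20312 and 18571 cells, with a median of 4787 and 7716 per cell, and shared 96 cell barcodes, 3 of them among the members. The primary-transcript feature of *Mir34a* went against the labels, since macrophages held 133 of its UMIs (111 to 158), or 0.0683 per 10000, where the label was Mir34a_F/F and 462 (421 to 506), or 0.139 per 10000, where it was Mir34a_Mye_KO. Where this feature lies relative to the deleted part is not given in the sources used here, so a 3′ tag of it cannot check the deletion. Members had a median of 6158 and 7288 UMIs, near the 7124 and 6801 of the other epithelial cells. Their median mitochondrial share was 6.04% against 8.83% in the library labelled Mir34a_F/F and 7.43% against 7.45% in the library labelled Mir34a_Mye_KO.

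The score decided membership, so its values describe the choice and are not a result. Its median was 65.2 in members and 1.41 in other cells of the library labelled Mir34a_F/F, and 112 and 2.18 in the library labelled Mir34a_Mye_KO. The highest scores reached 1646 and 1837. At the threshold, the last member had 16.25 and the first cell outside 16.23 in the library labelled Mir34a_F/F, and these values were 28.84 and 28.74 in the library labelled Mir34a_Mye_KO, so the libraries were divided at different scores. A member held between 2 and 5000 score UMIs (median 47) and between 3 and 3732 (median 85), respectively, and 46 and 34 members rested on fewer than 5. At least 3 of the 6 score genes were detected in 363 (83.8%) and 256 (87.1%) members. *Tff3* led the score in 245 and 141 members and *Muc2* in 151 and 128, while *Zg16* led in 24 and 16, *Fcgbp* in 11 and 7 and *Clca1* in 2 and 2.

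Levels below are summed UMIs of a gene per 10000 summed UMIs of a group of cells, and each is given first for the library labelled Mir34a_F/F and then for the library labelled Mir34a_Mye_KO. *Muc2*, the mucin of the colonic mucus gel on chromosome 7 (mm10, chr7:141690340-141754693), was at 47.7 in members and 0.572 in other cells, and at 69.7 and 0.740. *Tff3*, the intestinal trefoil peptide (chr17:31125306-31129646), was at 81.9 against 0.680 and at 111 against 0.849. *Fcgbp*, a mucin-like protein of the mucus (chr7:28071236-28120862), was at 15.6 against 0.221 and at 30 against 0.288. Each of these genes was 70.5- to 131-fold higher in members, as the rule required. *Clca1*, a secreted mucus-processing protein (chr3:145003817-145032776), had 6.29 against 0.0585 and 11.7 against 0.104. *Zg16*, a lectin of the mucus that binds Gram-positive bacteria (chr7:127050156-127087328), had 27.4 against 0.224 and 22.4 against 0.281, but 1 cell held 24.1% and 37.0% of its UMIs in members. *Spdef*, the goblet transcription factor (chr17:27714352-27728955), was the score gene with the fewest UMIs, 335 and 253 in members, at 0.811 against 0.0303 and 0.928 against 0.0467.

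Low levels of these secreted-product mRNAs occurred in every annotated cell type. In the 10 annotated types other than epithelium, *Muc2* lay between 0.387 and 1.39 and *Tff3* between 0.368 and 1.53, ranges that hold the values of the other epithelial cells. T cells, which should lack *Muc2*, had a *Muc2* UMI in 28.2% and 47.3% of cells (median 3548 and 8043 UMIs), against 36.5% and 44.7% of other epithelial cells and 88.5% and 95.6% of members. With every cell thinned to 1000 UMIs, these shares were 9.82% and 9.80% in T cells, 7.14% and 13.2% in other epithelial cells, and 68.6% and 84.0% in members; 84 and 7 T cells were too shallow to enter. In the library labelled Mir34a_F/F the share in other epithelial cells was therefore at background. *Spdef*, which encodes no secreted product, was found after thinning in 7.62% and 6.46% of members, 0.353% and 0.519% of other epithelial cells and 0.233% and 0.303% of T cells.

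**Figure D1:**
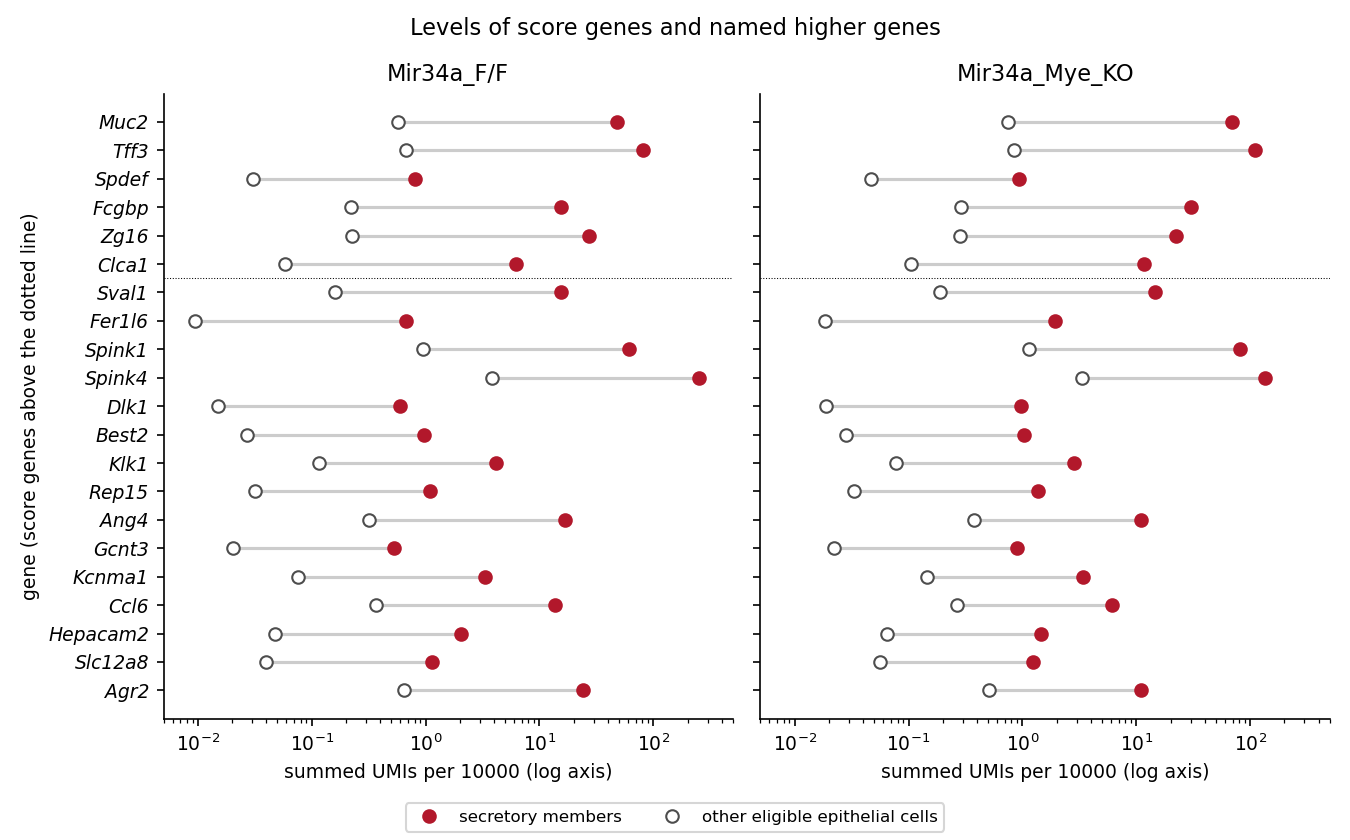
Levels of the 6 score genes (above the dotted line) and of 15 further named genes, as summed UMIs per 10000 on a log axis, in members (filled) and in other eligible epithelial cells (open), with 1 panel per library. Every filled point lies to the right of its open point in both libraries, and *Spink4* in members stands at 252 and 136.

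Goblet genes that the score did not use were also higher in members. Among 6763 genes with a level of at least 0.2 in members or other cells of each library, 214 (3.16%) were at least 2-fold higher in members in both libraries and 164 (2.42%) at least 2-fold lower, with a median log2 ratio of -0.13 and -0.14 over all of them. Of 23 listed goblet genes outside the score, 20 passed this filter and all 20 were at least 2-fold higher in both, with a median log2 ratio of 4.21 and 4.26. A gene could pass through its level in members alone, so these counts describe the cells and are no support for them. The summed level of the list was 328 in members and 7.86 in other cells, a log2 ratio of 5.39 (from 5.37 to 5.4), and 183 and 7.21, which gave 4.66 (4.64 to 4.68). Of the 3 genes below the filter, *Capn9* had log2 ratios of 2.53 and 4.13 and *Sytl4* 2.21 and 2.84, while *St6galnac1* had 1 and 2 UMIs in members, too few for a direction.

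*Spink4*, a Kazal-type protease inhibitor gene, was at 252 in members and 3.80 in other cells, and at 136 and 3.33, log2 ratios of 6.05 (6.03 to 6.07) and 5.35 (5.32 to 5.38). *Reg4*, a secreted C-type lectin, was at 30.6 against 0.660 and at 10.8 against 0.639. *Agr2*, a disulfide isomerase needed to fold Muc2 in the endoplasmic reticulum (ER), was at 23.9 against 0.653 and at 11.0 against 0.507, or 36.6- and 21.8-fold. These were the listed goblet genes with most UMIs in members, and all had lower ratios in the library labelled Mir34a_Mye_KO. Regulators of the lineage were captured at lower levels but showed the same direction. *Atoh1*, which commits progenitors to the secretory fate, was at 0.390 against 0.0108 and at 0.649 against 0.0156, log2 ratios of 5.17 and 5.38. *Creb3l1*, an ER-anchored transcription factor, had log2 ratios of 2.95 and 3.20, and *Ern2*, the ER stress sensor of mucous epithelia, 3.72 and 3.79. *Foxa3*, a forkhead factor expressed in goblet cells, had 1.74 and 1.91.

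Of the 15 genes named for the largest ratio common to both libraries, *Sval1* came first, with a log2 ratio of 6.61 (6.52 to 6.69) and 6.28 (6.18 to 6.39). *Fer1l6*, of the ferlin family of membrane proteins, had 0.678 against 0.00949 and 1.92 against 0.0183, or 71.4- and 105-fold. *Spink1*, a secreted trypsin inhibitor, had 61.8 against 0.942 and 80.9 against 1.15. The levels of *Sval1* and *Spink1* in other cells were again low but not 0, and 10.5% to 53.2% of those cells had a UMI of them. Ion transport was represented by *Best2*, an anion channel of colonic goblet cells (log2 5.16 and 5.19), *Kcnma1*, the pore of the large-conductance potassium channel (5.45 and 4.55), and *Slc12a8*, of the cation-chloride cotransporter family (4.84 and 4.48). *Klk1*, tissue kallikrein, had 5.15 and 5.19, *Rep15*, an effector of the vesicle GTPase Rab15, 5.12 and 5.36, and *Gcnt3*, which branches mucin O-glycans, 4.70 and 5.34. *Ccl6*, a chemokine, had 5.25 and 4.54, *Hepacam2*, an adhesion protein of the immunoglobulin superfamily, 5.41 and 4.50, *Ang4*, an antimicrobial ribonuclease, 5.72 and 4.88, and *Dlk1*, an imprinted transmembrane protein related to Notch ligands, 5.33 and 5.66. *Dlk1* was detected in 14.3% of members of both libraries, and 1 cell gave 10.1% and 21.3% of its UMIs.

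Promoter sequence was examined because these genes were high in the same cells and because Atoh1 belongs to the bHLH factors, which bind E-boxes. In promoters of RefSeq (GRCm38.p6), from 250 bases before to 50 after a start site, CAGCTG, which reads the same on both strands, occurred in 18.3% of 27025 genes and in 17.2% of the 5371 tested genes with a promoter in the table. It occurred in 41 of the 156 matched genes at least 2-fold higher in members (26.3%) and in 24 of the 120 matched lower genes (20%). CAGATG, on either strand and thus also as CATCTG, occurred in 19.2% of all genes, 12.7% of tested genes, 23.7% of higher and 17.5% of lower genes; no position can hold both. A gene with several start sites was counted once if any of its promoters held the letters. Of the 21 score and named higher genes, 12 had a promoter in the table, 5 with CAGCTG and 4 with CAGATG. The 26-base stretches below show CAGCTG in capitals in its setting, 5′ to 3′ on the strand of the gene, in *Muc2* and *Fcgbp* of the score and in 2 named genes outside it.
Muc2, chr7:141690218-141690243, plus strand: ggagcccccaCAGCTGttttcctgat
Fcgbp, chr7:28071018-28071043, plus strand: gtgtagccacCAGCTGctctcacacc
Hepacam2, chr6:3494514-3494539, minus strand: aataaaccagCAGCTGctggtccatg
Sval1, chr6:41951467-41951492, plus strand: tctgaggttcCAGCTGgatactcacc
The motif began 112, 208, 31 and 151 bases before the start site, respectively. For *Hepacam2* this start site lies inside the annotated gene (chr6:3457096-3498298, minus strand) and not at its outer end. These are matches of letters, and no binding was measured.

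The alpha-defensin genes were the other feature of these cells, and their UMIs came from few of them. All 22 *Defa* genes of the table lie in 1 cluster on chromosome 8 (chr8:21025545-21735471, 710 kb). Their summed level was 234 in members and 17.4 in other cells, a log2 ratio of 3.75, and 76.8 and 11.6, a log2 ratio of 2.72. A typical member differed far less, with a median of 3.42 against 1.40 and of 3.88 against 2.01 UMIs per 10000 of the cell. The 5 cells with most *Defa* UMIs held 67.4% and 67.6% of those in members, and 79.2% and 76.7% of those in other cells. Without the 5 such cells on both sides, the log2 ratios were 4.47 and 3.25. Taken as means over cells they were 3.88 and 2.56, and as medians 1.28 and 0.95.

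A *Defa* UMI was common in all kinds of cells. It was found in 79.4% and 83% of members, 72.0% and 79.9% of other epithelial cells and 61.8% and 79.2% of T cells. At 1000 UMIs per cell the shares were 44.8% (40.1 to 49.6) and 41.8% (36.1 to 47.7) in members, 20.1% and 30.6% in other epithelial cells and 24.8% and 21.4% in T cells. A level of at least 100 *Defa* UMIs per 10000, a threshold set after the values were seen, was reached by 49 members (11.3%, 8.49 to 14.7) and 19 members (6.46%, 3.94 to 9.91). Outside the members, 27 (0.328%) and 16 (0.286%) cells reached it. Members thus made up 64.5% of the 76 and 54.3% of the 35 defensin-rich eligible cells. In 1 cell outside them, 77.7% of all UMIs were of *Defa* genes, against at most 38.9% in a member.

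**Figure D2:**
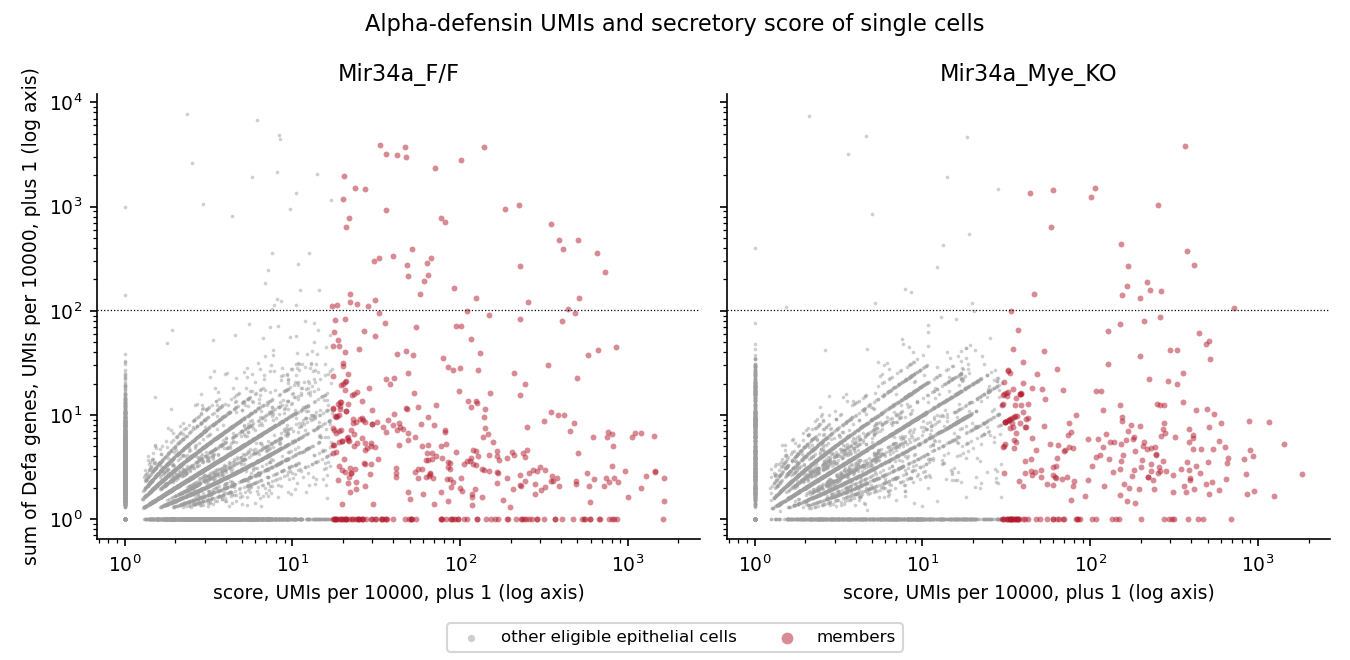
Summed alpha-defensin UMIs against the secretory score for each eligible epithelial cell, both as UMIs per 10000 plus 1 on log axes, with 1 panel per library, members in red and the dotted line at a level of 100. The 49 and 19 members above the line have scores from 16.2 to 731 and from 43 to 722, below the highest scores of 1646 and 1837, and 27 and 16 other cells lie above it at lower scores.

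Single *Defa* genes did not move as a block. Of the 22, 8 passed the filter on levels and 6 of these were at least 2-fold higher in members in both libraries, with a list median of 3.17 and 2.39 on the log2 scale. *Defa24* carried most UMIs, 75745 and 15761 in members, at 183 against 7.56 and 57.8 against 5.53, log2 ratios of 4.60 and 3.39. *Defa17* was at 10.9 against 0.490 and 5.4 against 0.306, and *Defa26*, with 213 and 73 UMIs, had log2 ratios of 5.17 and 4.16. *Defa30* had 1.58 and 1.77, *Defa36* 3.68 and 2.08, and *Defa34* 2.18 and 2.70. *Defa21* and *Defa22* stayed below the 2-fold line in at least 1 library, with -0.12 and 0.45 for *Defa21* and 2.65 and 0.10 for *Defa22*. A single cell held 25.6% and 90.5% of the *Defa21* UMIs and 45.4% and 71.5% of the *Defa22* UMIs of members. Of the 14 genes below the filter, *Defa31* and *Defa33* had no UMI in any cell of these groups, and *Defa25*, *Defa2* and *Defa37* had at most 8 UMIs in members.

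These genes are close copies of each other, so counts of single members are uncertain. Of all 90-base stretches of its annotated transcripts, *Defa36* shared 94.9%, *Defa17* 90.9% and *Defa34* 75.9% exactly with another *Defa* gene, *Defa21* 45.3% and *Defa22* 45.2%, *Defa30* 4.53%, and *Defa24* and *Defa26* none. The summed level does not depend on which copy a read was given to, but reads that match several copies may have been left out of the counts, and how many was not tested. The first 30 of the 279 coding bases of each of the 8 genes (GENCODE vM21, mm10) show the likeness, with capitals where a letter differs from *Defa24*.
Defa24: atgaagacactaatcctcctctctgccctc
Defa30: atgaagacactaatcctcctctctgccctc
Defa17: atgaagacactaGtcctcctctctgccctc
Defa21: atgaagacactTGtcctcctctctgccctc
Defa22: atgaagacactTGtcctcctctctgccctc
Defa26: atgaagacactTGtcctcctctctgccctT
Defa36: atgaagacaTtTGtcctcctctctgccctT
Defa34: atgaagacaAtTGtcctcctctctgccctT
*Defa30* matched *Defa24* in all 30 letters, *Defa21* and *Defa22* matched each other, and *Defa36* and *Defa34* differed most, in 4 letters.

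Other Paneth genes were higher in members as well. Of 7 listed, 6 passed the filter, 5 of them were at least 2-fold higher in both libraries and *Pnliprp2*, a pancreatic lipase-related gene, was lower (log2 -1.20 and -1.50), with a median log2 ratio of 4.52 and 3.41. Their summed level was 200 against 9.01 and 93.2 against 8.90, log2 ratios of 4.47 and 3.39. *Lyz1*, the Paneth lysozyme, was at 121 against 3.02 and 58.4 against 3.85. Its reads may be shared with the paralog *Lyz2*, which had 16 and 3 UMIs in members. *Mmp7*, the protease that activates mouse pro-defensins, was at 38.8 against 2.30 and 13.4 against 1.52. *Itln1*, a lectin that binds microbial sugars, was at 20.4 against 0.936 and 8.82 against 0.736, and *Ang4* at 16.8 against 0.320 and 11.1 against 0.377. In defensin-rich members *Lyz1* reached 318 and 178, against 89.1 and 45.2 in the other members, so it was not confined to the former. *Itln1* stood at 63.6 and 26.1 in the defensin-rich and at 13.3 and 6.91 in the other members, while *Muc2* was similar at 40.0 and 68.6 against 49.0 and 69.8. The other score genes differed among themselves. *Zg16* was at 0.841 and 4.21 against 31.8 and 24.4, *Clca1* at 1.87 and 2.88 against 7.01 and 12.7. *Fcgbp* was at 6.35 and 22.1 against 17.1 and 30.9, *Tff3* at 49.0 and 107 against 87.3 and 112. *Spdef* was at 0.858 and 0.996 against 0.803 and 0.921. The defensin-rich cells outside the members had *Lyz1* at 168 and 285 with *Muc2* at 3.42 and 2.46. *Lgr5*, a receptor of crypt base stem cells, was at 1.47 and 1.38 in these, against 0.292 and 0.221 in defensin-rich members and 0.686 and 0.803 in all other epithelial cells.

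Members differed among themselves along the score. Divided into quartiles of 108 or 109 and of 73 or 74 cells, they had median scores of 19.5, 39.1, 108 and 437 in the library labelled Mir34a_F/F and of 33.2, 61.5, 181 and 425 in the library labelled Mir34a_Mye_KO. The quartiles follow from the rule for score genes, so they are read here for other genes. *Spink1* rose from quartile 1 to 4 through 9.82, 24.1, 40.0 and 181, and through 13.4, 27.3, 68.6 and 160. *Sval1* went through 4.22, 5.45, 15.5 and 36.9, and through 1.90, 6.66, 10.5 and 29.9. *Retnlb*, a goblet-specific resistin-like protein, was at 4.02 and 1.06 in quartile 4 and at most 0.737 and 0.207 in quartiles 1 to 3. *Agr2* went through 6.53, 14.9, 31.7 and 38.9, and through 4.85, 6.83, 9.18 and 18.6. These 4 genes were thus highest in quartile 4 of both libraries. *Reg4*, another listed goblet gene, was lowest there, with 20.8, 35.1, 47.3 and 12.1, and 12.4, 16.3, 11.5 and 5.41.

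Several Paneth genes took another course. *Lyz1* was at 77.6, 162 and 170 in quartiles 1 to 3 and 53.2 in quartile 4 of the library labelled Mir34a_F/F, and at 96.2, 76.3, 67.5 and 20.7 in the library labelled Mir34a_Mye_KO. *Itln1* was at 20.2, 32.9, 22.3 and 4.67, and at 31.1, 9.45, 6.04 and 2.92. A single cell held 9.42% and 32.7% of the *Itln1* UMIs of members, and its part in these values was not tested. *Mmp7* was at 27.9, 42.7, 57.5 and 18.9, and at 18.1, 15.7, 16.8 and 6.11. For each of these 3 genes the quartile with the highest score had the lowest level in both libraries. *Ang4* differed, with 9.65, 21.3, 20.1 and 14.5, lowest in quartile 1, and with 8.43, 20.5, 12.1 and 3.91. With cells weighted equally, the Paneth list was at 73.9, 164, 195 and 76.5, and at 42.5, 73.8, 76.2 and 34.4, so it was highest in quartile 3 of both libraries and low at both ends. The *Defa* sum was 146, 447, 276 and 35.9, and 10.7, 172, 52.2 and 56.8, values that rest on the few rich cells. Members led by *Zg16*, 24 and 16 cells, stood apart in the same sense, with *Lyz1* at 7.18 and 2.87, a *Defa* sum of 16.0 and 1.70 and *Retnlb* at 7.31 and 5.63. In quartile 1 of the library labelled Mir34a_Mye_KO the median depth was 1344 UMIs, against 6697 to 10441 in its other quartiles, and *Ptprc*, a leukocyte marker, was at 1.31, against 0.510 in other epithelial cells. The part of this depth in the values of that quartile was not tested.

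**Figure D3:**
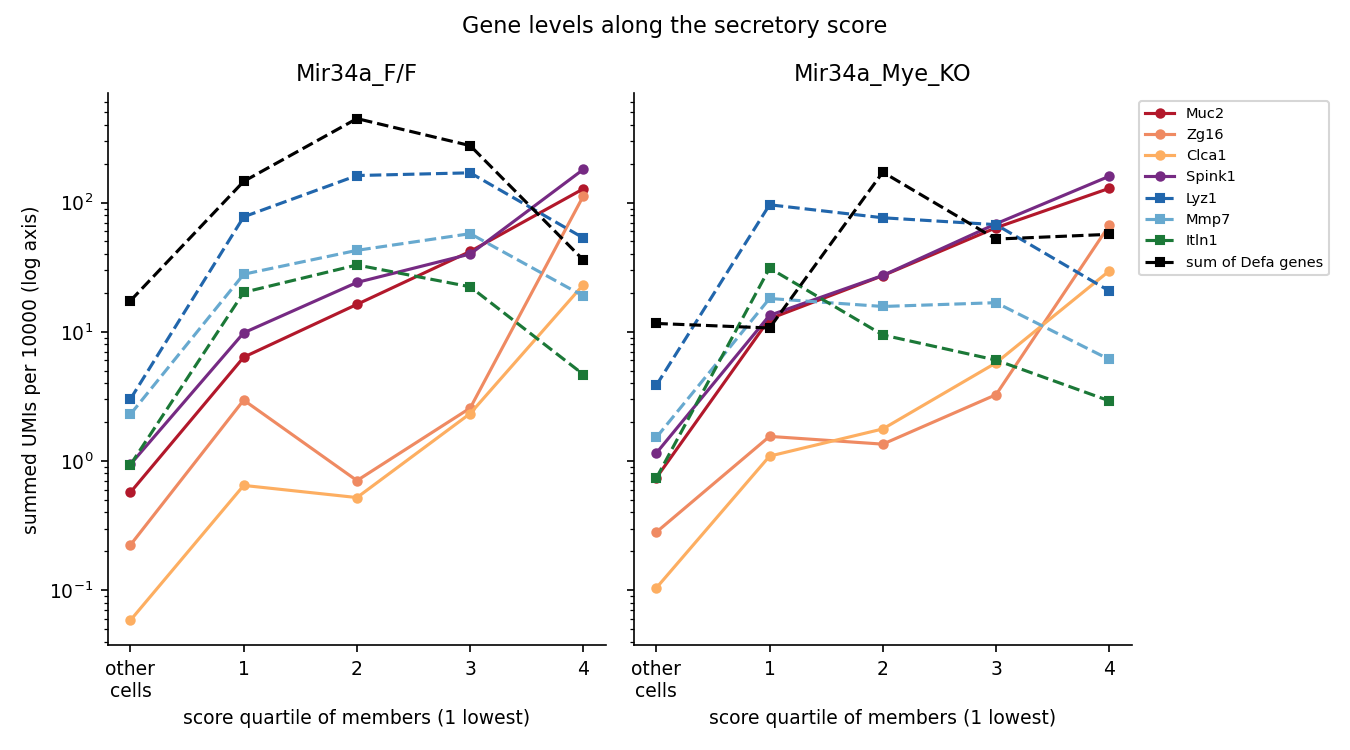
Summed UMIs per 10000 (log axis) in other eligible epithelial cells and in members by quartile of the score, with 1 panel per library. Solid lines show *Muc2*, *Zg16* and *Clca1*, which are score genes, and *Spink1*. Dashed lines show *Lyz1*, *Mmp7*, *Itln1* and the *Defa* sum. The lines of the score genes follow from the rule, and *Reg4*, a listed goblet gene lowest in quartile 4, is not drawn. *Spink1* climbs to 181 and 160 in quartile 4, while *Lyz1* falls there to 53.2 and 20.7.

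The machinery of secretion was higher by smaller factors. Of 32 listed genes of ER folding and secretion 31 passed the filter and 2 were at least 2-fold higher in both libraries. These were *Tmed3* (log2 1.89 and 1.54) and *Sec24d* (2.30 and 1.52), both of vesicle transport between ER and Golgi. The sum of the list was 77.6 against 51.1 and 56.0 against 38.9, log2 ratios of 0.60 and 0.53. The median over its genes was 0.59 and 0.62, against -0.13 and -0.14 over all tested genes, and *Sec61b* had 0.47 and 0.00. *Calr*, an ER lectin chaperone, had 0.58 and 0.70, *P4hb*, a disulfide isomerase, levels of 7.05 against 3.27 and 4.92 against 2.46, *Hspa5*, the ER Hsp70 chaperone, log2 ratios of 0.47 and 0.43, and *Xbp1*, a factor of the unfolded protein response, 0.77 and 0.95. Mucin glycosylation genes showed a wider spread. Of 19 listed, 16 passed, 9 were at least 2-fold higher and *B4galt1* was slightly lower (-0.23 in both), with a sum of 18.3 against 9.58 and 21.2 against 9.80 and a median log2 ratio of 1.32 and 1.36. *Galnt7*, which extends O-glycosylation of mucins, had 1.92 and 2.08, *C1galt1*, which makes the core 1 O-glycan, 1.03 and 1.27, *Galnt5* 4.75 and 4.38 and *St6gal1*, a sialyltransferase, 4.50 and 3.04.

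Genes of other mucins and lineages were measured as well. Of 11 other mucin and trefoil genes 5 passed the filter, and *Muc3a* alone was at least 2-fold higher in both libraries (2.87 and 2.78), while *Muc13*, a membrane mucin, had 0.37 and 0.50 and the list median was 0.54 and 0.97. The gastric mucin *Muc5ac* was rare, with 18 and 28 UMIs in members, but other cells had just 0.000123 and 0.00117 per 10000. Among 18 enteroendocrine genes 2 passed, *Sct*, secretin, being higher (2.84 and 1.92) and *Pyy*, a hormone of the distal gut, lower (-2.01 and -1.83), and *Chga*, the general marker, had 1 and 2 UMIs in members. A single member held 21.9% and 33% of the *Sct* UMIs and 13.2% and 70.6% of the *Pyy* UMIs of members. *Pyy* was found in 5.54% and 5.44% of members against 6.71% and 4.76% of other cells. Its share of cells was thus not lower in members of the library labelled Mir34a_Mye_KO. Of 13 tuft genes 2 passed and none differed 2-fold, with 5 and 6 UMIs of *Dclk1*. The 9 pan-epithelial genes, such as *Epcam* (16.7 against 17.3 and 16.1 against 15.7), differed by less than 2-fold, with a median log2 ratio of 0.04 and 0.13 and a ratio of sums of -0.10 and 0.08. Members thus had pan-epithelial genes at the level of other epithelial cells, and a level of 100 *Defa* UMIs per 10000 was reached by a minority of them.

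Colonocyte genes were divided. Of 15 listed 9 passed, 2 were at least 2-fold higher and 3 lower, with a median log2 ratio of -0.74 and -0.51. The higher ones were *Guca2a* (4.24 and 3.61) and *Guca2b* (3.08 and 2.27), which encode guanylin peptides that are also made by goblet cells. The lower ones were *Car1*, a carbonic anhydrase (-1.28 and -2.04), *Clca4a* (-1.18 and -1.75) and *Clca4b* (-1.45 and -1.57). *Krt20*, a differentiation keratin, had -0.66 and -0.29. Stem and Wnt target genes, 16 listed and 14 passing, included 3 genes at least 2-fold lower and none higher, with a median of -0.71 and -1.13. These were *Axin2* (-1.20 and -1.18), *Notum* (-1.22 and -1.10) and *Nkd1* (-1.47 and -1.80), which act as feedback inhibitors of Wnt signaling. *Lgr5* was at 0.373 against 0.686 and at 0.352 against 0.803, and fell to 0.0531 and 0.0706 in score quartile 4. *Sox9* was close to even (0.19 and -0.00), and *Slc12a2*, a sodium-potassium-chloride cotransporter, was higher (0.92 and 0.90).

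Cell cycle genes were lower, with a median log2 ratio of -0.79 and -1.34, against -0.13 and -0.14 over all tested genes. Of 14 listed 6 passed and 2 were at least 2-fold lower in both libraries, *Mki67* (0.399 against 0.916 and 0.279 against 0.889) and *Cenpf* (-1.46 and -1.58). *Pcna* was closest to even, with -0.19 in both and an interval from -0.41 to 0.03 in the library labelled Mir34a_Mye_KO. Of 16 Notch and secretory fate genes 8 passed, with a median of -0.17 and 0.10 although their sum was higher in members of both libraries (17.2 against 15.9 and 18.5 against 14.5). *Dll4*, a Notch ligand, was the one at least 2-fold higher (2.10 and 1.83), and *Dll1*, below the filter with 16 and 20 UMIs, had 1.40 and 2.26. *Klf4*, a factor of goblet differentiation, had 0.55 and 0.99, *Notch1* -0.60 and -1.28 and *Hes1*, a target of Notch, -0.43 and -0.04. Antimicrobial and acute-phase genes, 13 listed and 11 passing, held 2 higher genes, *Reg3g*, a lectin that kills Gram-positive bacteria (2.61 and 1.83), and *Slpi*, a protease inhibitor (2.49 and 2.05), and 1 lower, *Wfdc2* (-1.05 and -1.36), and had a median of -0.24 and 0.03 with sums of 39.8 against 31.6 and 46.8 against 35.5. Of the UMIs in members, 1 cell held 14.3% and 16% for *Reg3g*, 30.3% and 5.56% for *Slpi* and 9.15% and 47.9% for *Wfdc2*. *Pigr*, which carries immunoglobulin A into the lumen, had 0.92 and 1.08. *Reg3b* was at 1.58 against 0.501 in the library labelled Mir34a_F/F and at 0.282 against 0.501 in the library labelled Mir34a_Mye_KO, but 1 cell held 77% and 41.6% of its UMIs in members.

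Markers of other cell types were measured beside these lists. Of 13 immune cell genes 6 passed and none was 2-fold higher in both libraries, with a sum of 19.0 against 8.78 and 14.0 against 10.6 and a median log2 ratio of 0.39 and 0.27. With cells weighted equally the ratio turned in the library labelled Mir34a_Mye_KO (14.9 against 17.8, log2 -0.26). *S100a8* and *S100a9*, neutrophil genes, made up most of this sum, and 1 member held 22.9% and 36.8% of the *S100a8* UMIs and 21.4% and 46.5% of those of *S100a9*. Their part in the other results was not tested. *Ptprc* was at 0.365 against 0.313 and 0.734 against 0.510. Of 12 MHC class II and interferon genes 10 passed, and *Ifit1* alone was at least 2-fold lower. Of 9 stromal and erythroid genes 3 hemoglobin genes passed. The sum of all 9 was 1.19 against 1.33 and 0.308 against 2.19, and *Col1a1* had 0 and 4 UMIs in members. The 3 tested immunoglobulin genes, 11 immediate-early and heat shock genes and 13 mitochondrial genes held no gene that differed 2-fold in both libraries. Of 83 tested ribosomal protein genes none differed 2-fold in both libraries. Their median was -0.26 and -0.39, against -0.13 and -0.14 over all tested genes.

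**Figure D4:**
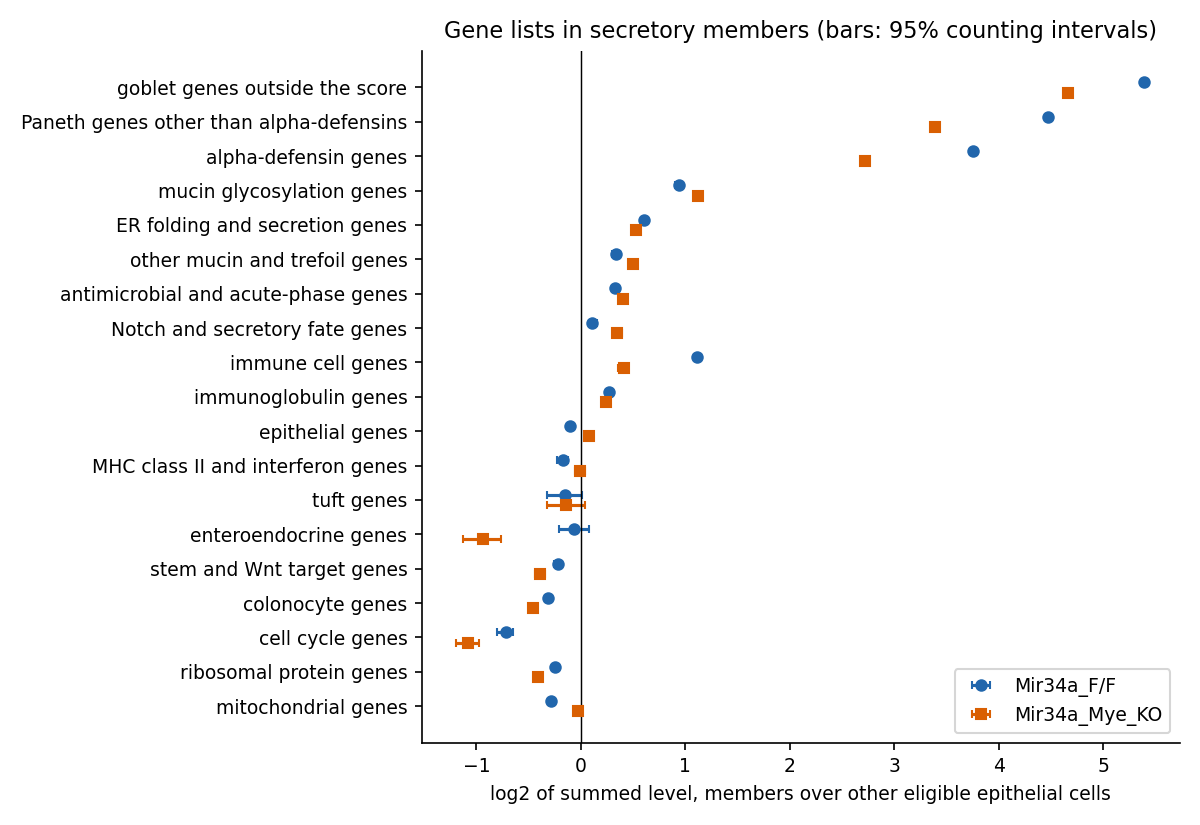
Log2 ratio of the summed level of the gene lists shown in members over other eligible epithelial cells, with 95% counting intervals that are mostly narrower than the symbols, for both libraries. The goblet list stands farthest to the right at 5.39 and 4.66, followed by the Paneth list at 4.47 and 3.39 and the alpha-defensin list at 3.75 and 2.72.

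Among the genes named for lower levels, *Mdga2*, an adhesion protein, was at 0.999 in members and 5.00 in other cells, and at 0.690 and 4.56, or 5.00- and 6.60-fold lower. *Robo1*, a Slit receptor, was at 0.629 against 2.78 and 0.407 against 2.21. *Pcdh7* (-2.16 and -2.56) and *Cdh13* (-1.95 and -2.08) are cadherins. *Ptn*, the growth factor pleiotrophin, had -2.24 and -2.42, *Prex2*, an activator of Rac, -1.97 and -2.12, *Cep112*, a centrosomal protein, -2.11 and -1.96, *Atp10a*, a lipid flippase, -1.94 and -1.93, and *Cadps*, of vesicle exocytosis, -2.41 and -1.83. These 9 genes were captured in 9.01% to 42.2% of members and in 13.9% to 48.1% of other cells. For each of them these shares differed by less than the summed levels. *Mdga2* was found in 39.7% and 42.2% of members against 46.2% and 48.1% of other cells. *Robo1* was found in 28.6% and 24.8% against 43.2% and 38.9%. *Cadps* had 15.2% and 22.4% against 23.7% and 22.1%, so its share was not lower in members of the library labelled Mir34a_Mye_KO. These shares were not compared with the background in other cell types.

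The libraries were then compared within the members. Because membership was the top 5% of each library and the thresholds differed, the ratio of Mir34a_Mye_KO over Mir34a_F/F is given beside the ratio in other epithelial cells and beside that in members of a common threshold of 28.84, which 302 (3.49%) and 294 (5.00%) cells reached. Among 6920 genes with a level of at least 0.2 in members of 1 library, 106 (1.53%) were at least 2-fold higher and 183 (2.64%) at least 2-fold lower in members of the library labelled Mir34a_Mye_KO, with a median log2 ratio of -0.083 (-0.067 in other cells). Of 15 *Defa* genes with such a level, 12 were at least 2-fold lower and none higher. A gene could pass through its level in 1 library alone, as *Defa27* did with 1.43 and 0.011. Such counts therefore describe the members and are no support for a difference. The sum of all *Defa* genes had a log2 ratio of -1.61 in members, -0.58 in other cells and -1.80 at the common threshold. In other cells the direction turned with every cell weighted equally, with means of 7.58 and 9.09 per cell. In members the ratio of such means was -1.06. The median member went the other way, with 3.42 in the library labelled Mir34a_F/F and 3.88 in the library labelled Mir34a_Mye_KO, so the direction of the sum did not hold for the typical member.

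*Defa22* fell from 15.7 to 1.61 (log2 -3.28, -3.43 to -3.14), with -0.74 in other cells. Of these UMIs 45.4% and 71.5% came from 1 cell, and among the top 2% of cells the ratio was 0.14, the opposite direction. *Defa36* went from 4.95 to 0.591 (-3.07, and -1.46 in other cells) and *Defa24* from 183 to 57.8 (-1.66, and -0.45). *Mmp7* went from 38.8 to 13.4 (-1.54, -1.59 to -1.49, and -0.60 in other cells), *Lyz1* from 121 to 58.4 (-1.06, and 0.35) and *Itln1* from 20.4 to 8.82 (-1.21, and -0.35). For *Itln1*, 9.42% and 32.7% of the UMIs in members came from 1 cell. *Mmp7* was detected in 69.1% and 65.3% of members, and 4.59% and 8.95% of its UMIs came from 1 cell, so it was spread over more cells than *Defa22*. The Paneth list as a whole had -1.10 in members, -0.02 in other cells and -1.25 at the common threshold, but the mean per other cell was 8.31 and 10.8, higher in the library labelled Mir34a_Mye_KO. *Rnase1*, a secreted ribonuclease, went from 0.523 to 0.117 (-2.15, and -0.93 in other cells). *Ppargc1a*, a coactivator of mitochondrial genes, went from 0.900 to 0.216 (-2.06, and -0.63), with 29.6% of its UMIs from 1 member of the library labelled Mir34a_F/F.

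Goblet genes outside the score had a summed log2 ratio of -0.85 in members, -0.12 in other cells and -1.02 at the common threshold, while the mean per other cell was 8.69 and 9.8, the opposite direction. Of 21 with a level, 3 were at least 2-fold lower and 2 higher. *Spink4* went from 252 to 136 (-0.89, and -0.19 in other cells), *Agr2* from 23.9 to 11.0 (-1.11, and -0.37), *Reg4* from 30.6 to 10.8 (-1.50, and -0.05) and *Retnlb* from 1.35 to 0.426 (-1.67, and -0.90), the last with 27.5% and 40.5% of its UMIs from 1 cell. *Ccl6*, which is not on the goblet list, went from 13.8 to 6.14 (-1.17, and -0.46). The goblet list was thus not uniform, since *Fer1l6* went from 0.678 to 1.92 (log2 interval 1.29 to 1.71, and a ratio of 0.95 in other cells), *Bcas1* had 1.02 and *Ern2* 0.80. The score genes also went different ways. *Fcgbp* had 0.95, 0.38 in other cells and 0.55 at the common threshold, and *Clca1* 0.90, 0.83 and 0.50. *Muc2* had 0.55 in members and 0.16 at the common threshold, *Tff3* 0.44 and 0.05 and *Spdef* 0.20 and -0.05. *Zg16* had -0.29 and -0.69, with the shares of 1 cell per library given above, and 0.10, the opposite direction, among the top 10% of cells.

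Genes named for a higher level in members of the library labelled Mir34a_Mye_KO were mostly higher there in other epithelial cells too. *Il31ra*, a cytokine receptor subunit, had log2 ratios of 2.01 in members and 1.98 in other cells, *Lars2*, mitochondrial leucyl-tRNA synthetase, 1.94 and 1.74, *Camk1d*, a calcium-dependent kinase, 1.62 and 1.39, and *AY036118*, a long noncoding RNA on chromosome 17, 1.44 and 1.31. *Saxo1*, of a family of microtubule proteins, had 2.11 (1.70 to 2.54) and 1.41. *Tat*, tyrosine aminotransferase, had 1.76 (1.40 to 2.13) in members and 0.26 (0.13 to 0.40) in other cells, from 93 and 208 UMIs in members. It was at 0.225 against 0.124 and 0.763 against 0.149, so the gap between members and other cells was larger in the library labelled Mir34a_Mye_KO. Immunoglobulin genes had 1.36 and 1.39, again in both kinds of cells. Mitochondrial genes had 0.90 and 0.64 from summed UMIs, but in other cells the mean per cell was 993 and 1025 and the median 883 and 745, so a higher level there did not hold for the typical cell.

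**Figure D5:**
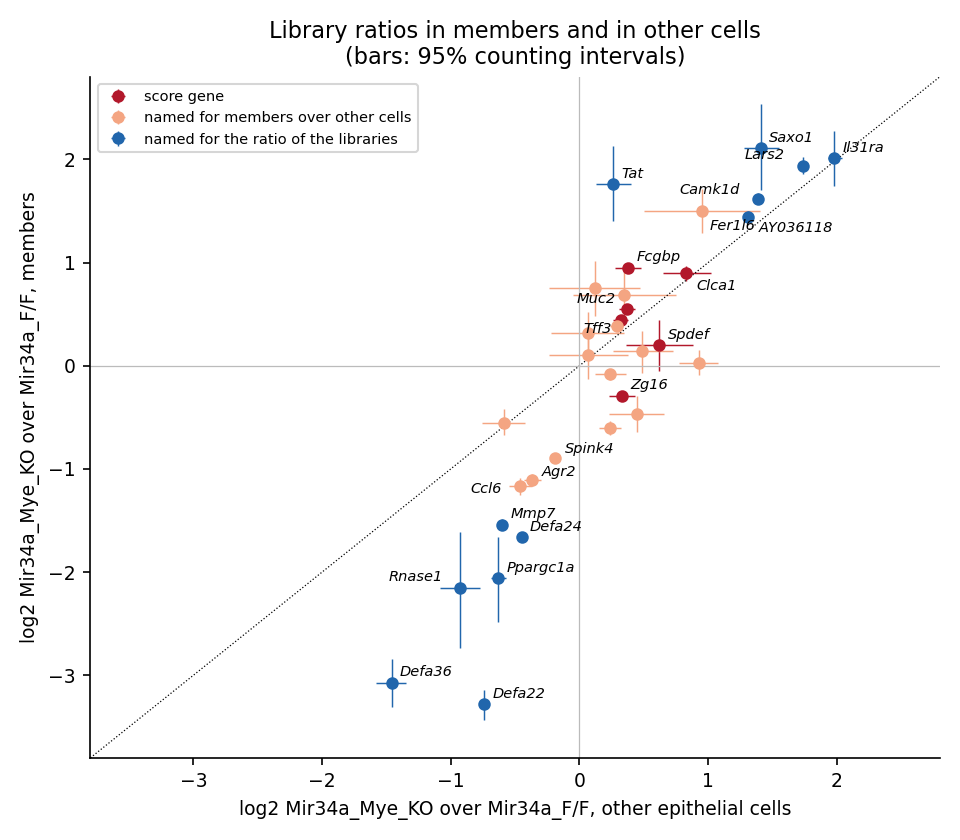
Log2 ratio of Mir34a_Mye_KO over Mir34a_F/F in members against the same ratio in other eligible epithelial cells, with 95% counting intervals, for the score genes, the 15 named higher genes and the genes named between libraries, and the dotted line marking equal ratios. *Il31ra* (2.01 and 1.98) lies on the line, while *Defa22* (-3.28 and -0.74) and *Tat* (1.76 and 0.26) lie away from it.

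The share of secretory cells could not be taken from membership, which was fixed at 5%, and was compared at common scores. At 16.25, 5.00% (4.55 to 5.48) of eligible cells of the library labelled Mir34a_F/F and 10.2% (9.44 to 11.0) of those of the library labelled Mir34a_Mye_KO were at or above it, and 1.73% and 1.05% of T cells with at least 1000 UMIs and the same limit on mitochondrial UMIs. At 28.84 the shares were 3.49% (3.11 to 3.90) and 5.00% (4.45 to 5.58), and T cells were at 0.271% and 0.194%. At 100 they were 1.95% (1.67 to 2.27) and 2.63% (2.24 to 3.08), and at 200 1.26% (1.03 to 1.52) and 1.73% (1.42 to 2.10). The ratio of the shares was 2.04 at 16.25, and the intervals at 100 and at 200 overlap. With cells thinned to 1000 UMIs, shares were 7.40% and 13.5% at 20, which is 2 UMIs, where T cells were at 4.67% and 3.89%. At 50 they were 3.04% (2.69 to 3.42) and 3.62% (3.16 to 4.13), where the intervals overlap, with T cells at 0.135% and 0.117%. At 100 they were 2.04% (1.76 to 2.36) and 2.72% (2.32 to 3.17), and at 200 1.33% (1.10 to 1.59) and 1.75% (1.43 to 2.12). The filter also left out unequal parts of the epithelium, 2955 of 11614 and 3981 of 9865 cells, of which 2328 and 3821 for their mitochondrial share alone. Of the cells left out, 241 and 92 had scores at or above the lowest member.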

How the data were processed

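Single cells of mouse CACs were measured by 3′ droplet RNA sequencing, with 1 library per genotype label. According to the submitters' processing notes and the study's methods, reads were processed with Cell Ranger 7.2.0 on mm10. By these sources, the authors kept cells with more than 200 mRNAs and less than 25% mitochondrial reads. They also used Scrublet against doublets and log-normalized the counts in Seurat. The deposited cells did not all meet the stated mitochondrial limit. At the same limit of 25%, 2328 epithelial cells labelled Mir34a_F/F and 3821 labelled Mir34a_Mye_KO were left out here for their mitochondrial share alone. The reason for this difference was not tested. The values deposited by the authors are the natural log of 1 plus UMIs per 10000 in each cell. Whole UMIs were recovered for 32291 genes (largest deviation from a whole number 1.5e-10), and no further doublet removal was done. Cell types are the authors' annotation.

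Levels are summed UMIs per 10000 and ratios are of summed UMIs, with 95% Poisson, Clopper-Pearson or conditional binomial intervals. No test between libraries was possible. Genes needed a level of 0.2 in members or other cells of each library. Named genes outside the score were the 15 with the highest and the 10 with the lowest log2 ratio by the less extreme library, with a level of at least 0.5 and a UMI in at least 10% of cells of the higher group, and between libraries the 6 per direction whose interval lay farthest from 0. Immunoglobulin, mitochondrial, ribosomal protein and predicted genes were left out of this naming, also where their intervals lay farther from 0. Of the 10 lower genes, 1 is not reported here. Other genes illustrate the lists. Members and gene lists were chosen with earlier results of these data known. Alternatives were thinning to 1000 UMIs, other shares, scores, filters and weights. On simulated Poisson counts without spread between cells, 95.3% and 95.4% of intervals held the true ratio. This checks the formula for counting error alone. Python 3.11.15, numpy 2.4.6, scipy 1.17.1, pandas 2.3.3 and matplotlib 3.10.9 were used.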

Additional observations from a re-analysis of the deposited data

Results flagged for a closer look

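For 5 gene lists the log2 ratio of Mir34a_Mye_KO over Mir34a_F/F had opposite signs in members and in other epithelial cells, with both counting intervals off 0. The enteroendocrine genes also had opposite signs, -0.08 (-0.31 to 0.15) in members and 0.80 in other cells, but the first interval spans 0. The stem and Wnt target genes had -0.14 in members and 0.02 in other cells, where the mean per cell went from 17.2 to 16.5, the sign of the members. The Notch and secretory fate genes had 0.11 and -0.13. For the immune cell genes the values were -0.44 and 0.27. *S100a8* (-0.38) and *S100a9* (-0.80) made up most of this sum in members, with 21.4% to 46.5% of their UMIs from 1 cell. *Ptprc*, *C1qa* and *C1qb* had 1.01, 0.41 and 0.37 in members, the sign of the list in other cells, and *Tyrobp* had -0.15. The immediate-early and heat shock genes had 0.20 and -0.16, and equal weights for cells gave -0.04 in members, the sign of the other cells. The stromal and erythroid genes had -1.95 and 0.71, but these sums rest on few cells. In the library labelled Mir34a_F/F 5 cells held 76% of their UMIs in members and 61% in other cells, and in the library labelled Mir34a_Mye_KO 20.2% and 86.1%. At the common threshold the ratio in members was 0.08 (-0.37 to 0.53), so the opposite sign did not hold there. The pan-epithelial genes had a ratio of members over other cells of -0.10 in the library labelled Mir34a_F/F and 0.08 in the library labelled Mir34a_Mye_KO. The mean per cell in the library labelled Mir34a_F/F was 103 in members and 102 in other cells, so the opposite sign did not hold with equal weights. With 1 library per genotype, none of these differences was tested.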

How the results depend on the processing

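The ratios of members over other cells of the 25 named genes, 50 in both libraries, gave 400 values under the alternatives, none of opposite direction. These genes were picked for extreme ratios in the same cells that the alternatives divided again, so the lack of a reversal is no support. No paired analysis was possible because each genotype has 1 library. In place of 214 genes at least 2-fold higher in both libraries, alternatives gave totals of 189 with cells weighted equally, 208 with thinned scores, 300 for the top 2%, 159 for the top 10%, 213 without *Tff3*, 212 with 2 score genes required, 260 with at least 2000 UMIs and less than 10% mitochondrial UMIs, and 243 at the common threshold. Of the 214 genes, these totals held 175, 206, 195, 152, 203, 212, 197 and 214, in the same order. The common threshold and the removal of 5 top cells were chosen after seeing the data.

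In the same order of settings, and with the cause not tested, the *Defa* sum in the library labelled Mir34a_F/F (3.75) had 3.88, 3.67, 2.82, 3.20, 3.70, 3.67, 3.64 and 3.81, and 4.47 without the top 5 cells. In the library labelled Mir34a_Mye_KO (2.72) it had 2.56 with equal weights, 2.75 thinned, 2.14 for the top 2%, 2.46 without *Tff3*, 2.42 with the stricter filter and 3.25 without the top 5 cells. Between libraries (-1.61) it had -1.06, -1.55, -1.54, -1.08, -1.77, -1.56, -1.07 and -1.80. Goblet genes outside the score had, with equal weights, thinned, top 2%, top 10%, without *Tff3* and with the stricter filter, 4.64, 4.81, 4.85, 5.00, 5.19 and 5.66 in the library labelled Mir34a_F/F (5.39; common threshold 5.14) and 3.82, 4.64, 4.48, 4.55, 4.46 and 4.84 in the library labelled Mir34a_Mye_KO (4.66). Between libraries (-0.85) they had -0.65, -0.66, -0.90, -0.45, -0.72 with the stricter filter and -1.02 at the common threshold. The share of cells at or above the score of 16.25, the lowest of a Mir34a_F/F member, was 2.04 times as high in the library labelled Mir34a_Mye_KO. This ratio was 1.32 for the top 2% and 1.34 with the stricter filter. The lowest member score depends on the setting, so these ratios are not all taken at 16.25. It was not run with 2 score genes required, with the common threshold or with equal weights.

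Among ratios between libraries within members given or plotted here whose counting interval lay off 0, direction reversed for *Defa22* in the top 2% (0.14), for *Zg16* in the top 10% (0.10), for *Klk1* (-0.55) and *Sval1* (-0.08) with equal weights (0.16 and 0.25), for *Rep15* (0.32) at the common threshold (-0.03), for the immediate-early and heat shock genes with equal weights (-0.04) and for the stromal and erythroid genes at the common threshold (0.08). *Spdef*, whose interval spans 0, turned to -0.05 at the common threshold. In other epithelial cells, equal weights turned the direction of the *Defa*, goblet, Paneth and stem and Wnt target lists. They also turned that of the antimicrobial and acute-phase, other mucin and trefoil, mucin glycosylation and cell cycle lists. Single genes were not recomputed there. In members over other cells, colonocyte genes had 0.02 in the top 2% of the library labelled Mir34a_F/F and 0.25 with the stricter filter in the library labelled Mir34a_Mye_KO, where immune cell genes had -0.26 with equal weights. The depth of 1 library per genotype limits all comparisons of genotypes to these libraries.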

Other observations

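Genes outside the lists also stood high in members, and those named here were picked after their values were seen. *Dlk1* lies in an imprinted domain of chromosome 12 with the noncoding RNAs *Meg3* and *Rian*. *Meg3* was at 0.849 in members and 0.0223 in other epithelial cells of the library labelled Mir34a_F/F, and at 0.895 and 0.0107 in the library labelled Mir34a_Mye_KO. It was found in 32 (7.39%) and 9 (3.06%) members, and 1 member held 17.1% and 52.5% of its UMIs. *Rian* was at 0.334 against 0.00628 and 0.327 against 0.00253, in 23 and 6 members, with 29.7% and 71.9% of its UMIs from 1 member. Of the members with *Rian*, 21 of 23 and 6 of 6 also had *Meg3*. *Dlk1* was found in 10 of the 32 and 4 of the 9 members with *Meg3*, against 14.3% of all members in both libraries. These were 10 of the 62 and 4 of the 42 members with *Dlk1*. The overlaps were counted in cells of unequal depth without thinning, and the part of depth in them was not tested.

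*Mptx1*, a pentraxin gene, was at 3.22 in members against 0.0214 and at 0.598 against 0.0128, in 31 and 21 members, with 32.5% and 44.8% of its UMIs from 1 member. *Clps*, which encodes the lipase cofactor colipase, was at 5.67 against 0.155 and at 3.07 against 0.161, and was found in 44.8% and 41.2% of members against 5.08% and 5.42% of other cells. *Ramp1*, a receptor-modifying protein for calcitonin-family peptides, had log2 ratios of 5.22 and 4.39, *Ptprn2*, a dense-core vesicle protein, 4.30 and 3.94, and *Ffar4*, a fatty acid receptor, 4.21 and 4.08.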
